A study of Mus musculus with 6 samples.

Results

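Lypd1, a small cell-surface protein gene of the Ly6/uPAR family, was examined together with 8 relatives (Lypd6, Lypd6b, Lynx1, Ly6e, Ly6a, Ly6c1, Ly6h and Plaur) in molar tissue of control and Lhx6-/- mice. All 9 members were present among the 23594 genes of the count table, and all 9 were among the 20114 genes that passed the expression filter. Lypd1 was singled out because it rose in the Lhx6-/- libraries, and the relatives were named with results of these data known, so the difference of each member between the genotypes is given as a description with its error and without a p-value. The question was whether relatives of Lypd1 shared its rise.

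RNA came from the apical side of the furcation development region (FDR), where the roots of a molar part, in mandibular first molars of C57BL/6 mice at postnatal day 4.5, cut out by laser-capture microdissection. There were 3 Control libraries, labelled wild type, and 3 Lhx6-/- libraries from littermate mutants, each made from the pooled tissue of several molars. In the Lhx6-/- mice both alleles were Lhx6-CreER knock-in alleles, which remove the function of Lhx6 in every cell that uses it and not only in the tooth, and mice of both sexes were collected. The libraries were read as single-end 75-cycle reads and held 60132323 to 76157433 estimated counts each. Levels are given as counts per 1000000 (CPM), scaled between libraries by the TMM method. The labels do not tie libraries to animals, so the spread between libraries may be in part technical.

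The targeted gene Lhx6 stood at 22.6 ± 4.83 CPM in Control and 11.0 ± 1.57 CPM in Lhx6-/- libraries (mean ± SD, n = 3 in each, log2 fold change -1.04, standard error or SE 0.16, edgeR adjusted p = 0.0210, and under 0.05 in 10 of 14 alternative fits). Summed levels of mesenchyme markers were 72044 to 92824 CPM in Control and 85698 to 92958 CPM in Lhx6-/- libraries, most of it from Col1a1. Of 10 mesenchyme markers, 9 were higher in Lhx6-/- libraries and 1 lower. The groups did not overlap in 5 of the higher and in the lower one, and in 15.5% of all tested genes. Dental epithelium markers summed to 135759 to 145628 CPM in Control and 115073 to 146418 CPM in Lhx6-/- libraries, most of it from enamel genes. Of 10 such markers, 1 was higher and 9 lower. The part of these differences in the results was not tested. No marker of either list was at 0 in any library. Y-linked genes summed to 17.4, 58.0 and 14.6 CPM in Control libraries 1, 2 and 3 and to 55.1, 92.1 and 88.5 CPM in Lhx6-/- libraries 1, 2 and 3, with Control library 2 inside the range of the Lhx6-/- libraries, and the part of this difference in the results was not tested beyond a fit with this level as a covariate. In a bulk sample, fewer cells of a type and less RNA per cell cannot be told apart.

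Proteins of the Ly6/uPAR family carry 1 or more LU domains, compact folds in which disulfide bridges between cysteines hold finger-like loops together. Most are tethered to the outer face of the cell membrane by a glycosylphosphatidylinositol (GPI) anchor and some are secreted. Lypd1 (also called Lynx2), Lynx1, Lypd6, Lypd6b and Ly6h are known as modulators of nicotinic acetylcholine receptors in neurons, and Lypd6 also as a promoter of Wnt signaling at the cell surface. Ly6a (Sca-1) and Ly6c1 are widely used surface markers of progenitor, blood and endothelial cells, Ly6e is the receptor of the placental fusion protein syncytin-A, and Plaur is the urokinase receptor, which gathers the protease urokinase on the cell surface.

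The coding sequence at the start of the LU domain shows what the members have in common and where they part. Each of the following stretches holds 60 coding bases, 5′ to 3′, from the first pair of cysteine codons that has 2 other codons between them, with every in-frame cysteine codon in capitals. They are shown because the cysteine codons of the members can be compared independently of their levels.
Lypd1: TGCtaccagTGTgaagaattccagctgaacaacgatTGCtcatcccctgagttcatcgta
Lypd6: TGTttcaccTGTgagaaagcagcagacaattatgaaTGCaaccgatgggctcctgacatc
Lypd6b: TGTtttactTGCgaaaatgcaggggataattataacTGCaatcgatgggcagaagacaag
Lynx1: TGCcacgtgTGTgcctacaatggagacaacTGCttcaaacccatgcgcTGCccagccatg
Ly6h: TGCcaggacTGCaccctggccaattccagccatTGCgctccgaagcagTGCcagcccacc
Ly6c1: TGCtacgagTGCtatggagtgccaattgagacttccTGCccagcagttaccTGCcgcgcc
Plaur: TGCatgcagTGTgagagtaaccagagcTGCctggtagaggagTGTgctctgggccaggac

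These stretches come from GENCODE vM21 transcripts (GRCm38), and each lies within 1 coding exon. That of Lypd1 is chr1:125910449-125910508 on the minus strand, in exon 2 of 3. The others are at chr2:50173627-50173686 (plus strand) for Lypd6, chr2:49943548-49943607 (plus) for Lypd6b, chr15:74751571-74751630 (minus) for Lynx1, chr15:75565626-75565685 (minus) for Ly6h, chr15:75047396-75047455 (minus) for Ly6c1 and chr7:24465148-24465207 (plus) for Plaur. Lypd1, Lypd6 and Lypd6b had 3 cysteine codons in the stretch, with the third at codon 13, and 15 in the whole coding sequence. The other 6 members had 4 cysteine codons in it. Among these the third cysteine codon stood at codon 13 in Ly6e, Ly6a and Ly6c1, at codon 12 in Ly6h, at codon 11 in Lynx1 and at codon 10 in Plaur, whose coding sequence of 981 bases held 29 cysteine codons. By the number of cysteine codons in the stretch and in the whole coding sequence, the members nearest to Lypd1 were Lypd6 and Lypd6b. The spacing of the first 3 was also that of Ly6e, Ly6a and Ly6c1, and sequence identity to Lypd1 was not computed.

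Lypd1 rose about 4-fold in the Lhx6-/- libraries. Its level was 4.10, 2.77 and 4.36 CPM in Control libraries 1, 2 and 3 and 18.3, 17.1 and 12.2 CPM in Lhx6-/- libraries 1, 2 and 3. The lowest Lhx6-/- library was 2.79 times the highest Control library, so the groups lay far apart. The mean went from 3.74 ± 0.854 to 15.8 ± 3.23 CPM (± SD over 3 libraries per group), or 2.08 as a log2 fold change (SE 0.20), with a 95% interval of 3.12-fold to 5.76-fold. By fold change Lypd1 was number 9 among the genes called higher, a rank on the contrast it was chosen on and so no support for its rise. Its log2 fold change ran from 1.91 to 2.66 over 14 alternative fits of the same libraries, which is a description of the contrast it was chosen on. The highest value came from the fit that took the summed Y-linked level as a covariate.

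Lypd1 lies on the minus strand of chr1:125867622-125913101 (mm10), and its 3′ end runs into Gpr39, a zinc-sensing receptor gene on the opposite strand. Of the 7038 exonic bases of Lypd1, 1202 (17.1%) are also exonic in Gpr39, and whether the counting used strand is not given in the sources used here, so reads from that stretch cannot be assigned with certainty. Gpr39 itself was low, with 0.508 ± 0.217 CPM in Control and 0.432 ± 0.293 CPM in Lhx6-/- libraries (± SD, n = 3 in each), or -0.24 as a log2 fold change (SE 0.66, edgeR adjusted p = 0.952). The next measured genes on either side also stayed within the spread between libraries. Slc35f5, on the far side of Gpr39, had 30.0 ± 3.39 and 30.5 ± 4.25 CPM (± SD over 3 libraries per group; edgeR adjusted p = 0.970), and Nckap5, just upstream of Lypd1, had 3.24 ± 0.494 and 2.82 ± 0.463 CPM (± SD over 3 libraries per group; edgeR adjusted p = 0.858). Gm37772, beyond Nckap5, was too low to be tested, with means of 0.0523 and 0.0851 CPM.

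None of the 8 relatives rose with Lypd1. Of these, 4 had a log2 fold change above 0 and 4 below, from -0.65 (Ly6h) to 0.16 (Ly6c1), with a median of -0.09, beside a median of -0.002 over all tested genes. The 4 above 0 (Ly6c1, Ly6e, Lynx1 and Ly6a) were all within 0.16 of it, and changed sign in 1, 1, 4 and 4 of the 14 alternative fits. The upper 95% limit of the fold was under 1.5-fold for all 8 and ran from 0.858-fold for Ly6h to 1.38-fold for Ly6c1. At an adjusted p under 0.05, edgeR called 1 of the 9 members (Lypd1) and 0.403% of all tested genes, 0.323% as higher. Since the members were chosen on this contrast, nothing is read from that count.

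**Figure D1:**
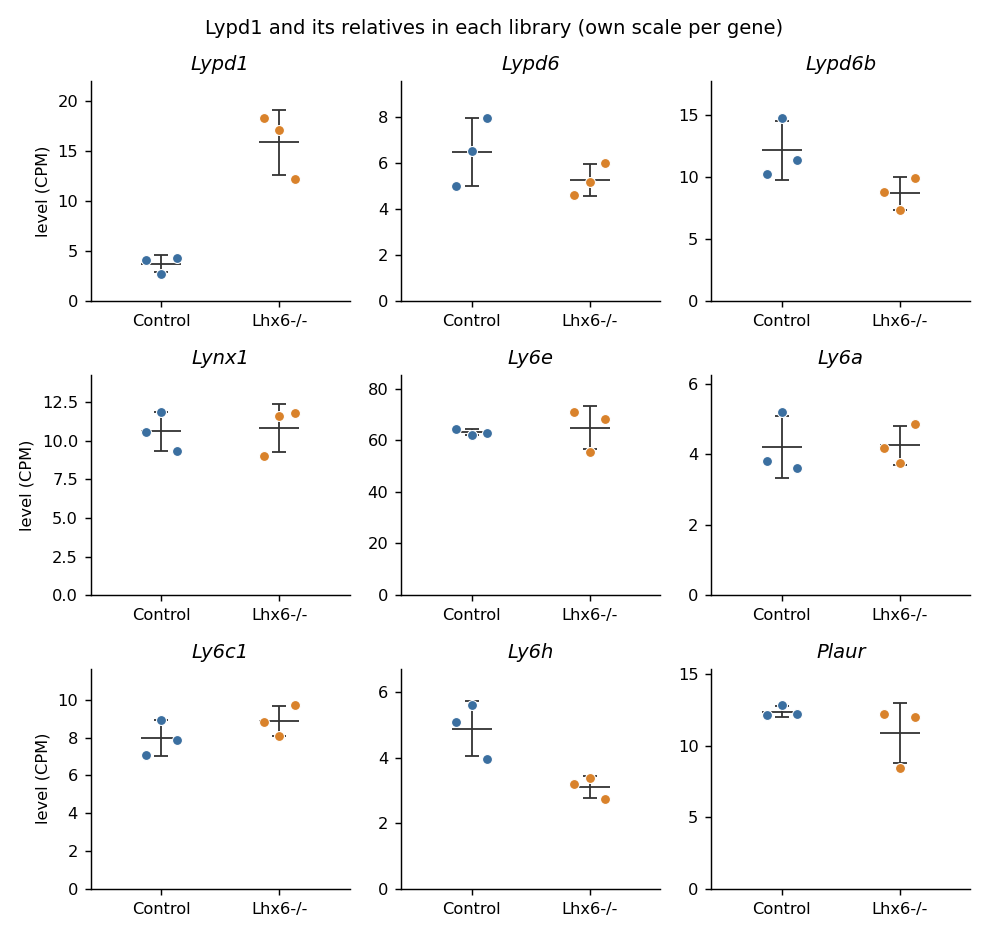
Level of the 9 members in each library (CPM, each panel from 0 on its own scale), with blue points for Control and orange points for Lhx6-/- libraries and black bars for the mean ± SD of 3 libraries. Lypd1 goes from 2.77 to 4.36 CPM in Control to 12.2 to 18.3 CPM in Lhx6-/- libraries, Lypd6b and Ly6h lie lower in all 3 Lhx6-/- libraries, and the groups overlap in the other 6 genes.

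Lypd6 and Lypd6b are neighbours on chromosome 2, and both had lower means in the Lhx6-/- libraries. They were the members nearest to Lypd1 by the counts of cysteine codons given above, with the limits given there. Lypd6b had 10.3, 14.8 and 11.4 CPM in Control and 8.85, 7.33 and 9.92 CPM in Lhx6-/- libraries. Every Lhx6-/- library lay below every Control library, though by little between 10.3 and 9.92 CPM. The means were 12.2 ± 2.36 and 8.70 ± 1.30 CPM (± SD over 3 libraries per group), or -0.48 as a log2 fold change (SE 0.16). Lypd6 had 5.01, 6.52 and 7.98 CPM in Control and 4.62, 5.18 and 6.02 CPM in Lhx6-/- libraries, and the groups overlapped. Its log2 fold change was -0.30 (SE 0.19), with a 95% interval of 0.607-fold to 1.08-fold. Without Control library 3 the log2 fold change of Lypd6 was -0.13 and without Control library 1 it was -0.45, and that of Lypd6b was -0.32 without Control library 2.

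Ly6h, known as a neuronal Ly6 protein that holds back nicotinic receptors, had the lowest log2 fold change of the 9. Its level was 5.09, 5.60 and 3.96 CPM in Control and 3.21, 3.37 and 2.75 CPM in Lhx6-/- libraries, without overlap. The means were 4.88 ± 0.840 and 3.11 ± 0.319 CPM (± SD over 3 libraries per group), or -0.65 as a log2 fold change (SE 0.20). It was not called at an adjusted p under 0.05 in edgeR or in any of the 14 alternative fits. The rule of the study's methods (at least 1.5-fold and an unadjusted p under 0.05) was applied here to the edgeR fit. The study applied it to its own comparison, which gave another number of genes. In the edgeR fit 2 of the 9 members qualified, Lypd1 as higher and Ly6h as lower. Of all tested genes 3.28% did so, and 1.71% as lower. The groups did not overlap in 3 of the 9 members (Lypd1 higher, Lypd6b and Ly6h lower), and in 15.5% of all tested genes, 7.68% with Lhx6-/- lower. The contrast had been used in choosing the members, so these shares are given for scale only.

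Lynx1, known as a brake on nicotinic receptors, had nearly equal means of 10.6 and 10.8 CPM. Its level was 10.6, 11.9 and 9.35 CPM in Control and 9.02, 11.6 and 11.8 CPM in Lhx6-/- libraries, for a log2 fold change of 0.02 (SE 0.14) and a 95% interval of 0.822-fold to 1.26-fold. Summed markers of nerve and glia, the tissue in which Lynx1 and Ly6h are best known, were 210 to 559 CPM in Control and 227 to 540 CPM in Lhx6-/- libraries, with 6 of 10 genes higher and 4 lower. That range is wide in both groups, and its part in the values of Lynx1 and Ly6h was not tested.

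Ly6e, Ly6a and Ly6c1 sit close together on chromosome 15, in the Ly6 gene cluster that also holds Lynx1 and Ly6h. Ly6e had 64.5, 62.0 and 62.8 CPM in Control and 71.1, 55.3 and 68.1 CPM in Lhx6-/- libraries, and a log2 fold change of 0.04 (SE 0.09). Its 95% interval of 0.896-fold to 1.18-fold was the narrowest of the 9. Ly6a had 3.82, 5.21 and 3.60 CPM in Control and 4.17, 3.75 and 4.85 CPM in Lhx6-/- libraries (log2 fold change 0.01, SE 0.20). Ly6c1 had 7.07, 8.95 and 7.90 CPM in Control and 8.82, 8.11 and 9.71 CPM in Lhx6-/- libraries (log2 fold change 0.16, SE 0.14). The groups overlapped in all 3 genes. Summed endothelium markers were 431 to 442 CPM in Control and 484 to 551 CPM in Lhx6-/- libraries, with 10 of 10 genes higher and none at 0, and their part in the Ly6c1 value was not tested.

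Ly6c1 and its neighbour Ly6c2 share a part of their sequence in which short reads cannot tell them apart. Their coding sequences were 97.7% identical, and the 60 bases printed for Ly6c1 are the same in Ly6c2 at 60 of 60 positions. Of all distinct 75-base stretches in the transcripts of Ly6c1, 19.0% also occurred in transcripts of another gene, most often Ly6c2 (14.7%). For Ly6a the share was 6.33%, and for Lypd6, Lypd6b, Lynx1, Ly6e, Ly6h and Plaur it was 0. Of the stretches of Ly6c2, 9.46% also occurred in transcripts of Ly6c1. Most stretches of either gene were thus found in 1 gene only, and the single values are uncertain to the extent of the shared part. The sum of Ly6c1 and Ly6c2 was 10.9, 13.1 and 15.2 CPM in Control and 12.4, 10.8 and 12.7 CPM in Lhx6-/- libraries. The means were 13.1 ± 2.17 and 12.0 ± 1.02 CPM (± SD over 3 libraries per group), and the groups overlapped.

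Plaur, the urokinase receptor, had 12.1, 12.8 and 12.2 CPM in Control and 12.2, 8.43 and 12.0 CPM in Lhx6-/- libraries. Only Lhx6-/- library 2 stood apart, and the log2 fold change was -0.19 (SE 0.14) with a 95% interval of 0.708-fold to 1.09-fold. Without that library the log2 fold change was -0.03. Summed leukocyte markers were 428 to 449 CPM in Control and 373 to 436 CPM in Lhx6-/- libraries.

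Per length of exon, Lypd1 was the scarcest of the 9 members in Control tissue. Its level was 0.532 ± 0.121 CPM per kb (SD, n = 3), below that of Ly6h (1.15 ± 0.199), Lypd6 (1.74 ± 0.398) and Lynx1 (2.28 ± 0.268). Ly6a (3.49 ± 0.722), Lypd6b (4.67 ± 0.905), Plaur (4.73 ± 0.152) and Ly6c1 (4.75 ± 0.562) came next, and Ly6e was highest at 16.7 ± 0.335 CPM per kb. Neighbours in this order overlapped between Ly6c1 and Plaur, Plaur and Lypd6b, Lypd6b and Ly6a, and Lynx1 and Lypd6, and did not overlap between Ly6e and Ly6c1, Ly6a and Lynx1, Lypd6 and Ly6h, and Ly6h and Lypd1. In Lhx6-/- libraries Lypd1 reached 2.25 ± 0.459 CPM per kb and passed Ly6h (0.736 ± 0.0755) and Lypd6 (1.41 ± 0.189), with libraries that overlapped those of Lynx1 (2.31 ± 0.328).

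**Figure D2:**
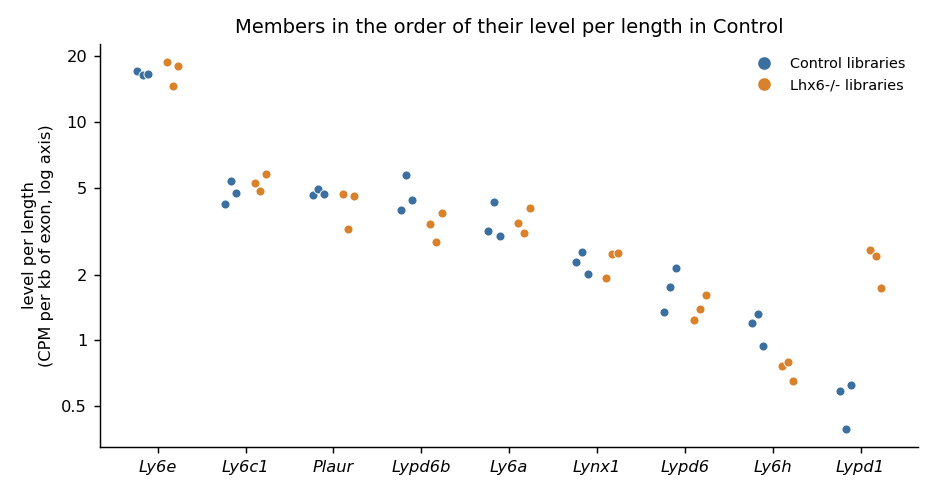
Level per length of the 9 members (CPM per kb of exon, log axis), ordered by their mean in Control, with blue points for Control and orange points for Lhx6-/- libraries (3 each). Lypd1 is last in Control, at 0.393 to 0.620, and lies at 1.73 to 2.6 in Lhx6-/- libraries, overlapping the range of Lynx1 and above Lypd6 and Ly6h.

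Beyond the members, 39 further genes of the family were listed by name, of which 22 were in the count table and 17 were tested. None of the 17 was called by edgeR at an adjusted p under 0.05, 0 were called by limma and 3 by DESeq2, which called 1.6% of the genes to which it gave an adjusted p. An unadjusted p under 0.05 in edgeR was reached by 7 of the 17 and by 9.81% of all tested genes. The values leaned down, with 13 of 17 below 0 and a median log2 fold change of -0.49. No gene qualified as higher by the fold rule, while 6 qualified as lower (Ly6d, Lypd3, Ly6g6c, Ly6g6e, Ly6c2 and Lypd5), where 1.71% of all tested genes did so. The highest log2 fold change among them was 0.56, for Pate4, a gene under 0.5 CPM in every library, with a 95% interval of 0.302-fold to 7.19-fold. For 16 of the 17 the upper 95% limit of the fold lay under the fold of Lypd1, and the interval of Pate4 includes that fold.

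Ly6d, a surface protein of stratified epithelia and of lymphoid progenitors, had the largest difference in level among the 6. It had 18.3, 42.3 and 25.7 CPM in Control and 11.1, 11.8 and 10.4 CPM in Lhx6-/- libraries, with means of 28.8 ± 12.2 and 11.1 ± 0.688 CPM (± SD over 3 libraries per group). The log2 fold change was -1.37 (SE 0.31, edgeR adjusted p = 0.233). The Control libraries spread more widely than the Lhx6-/- libraries, without overlap. Lypd3 (C4.4a), a laminin-binding relative of the urokinase receptor found in stratified epithelium, had 5.64, 10.5 and 10.7 CPM in Control and 4.21, 4.30 and 4.03 CPM in Lhx6-/- libraries. Its log2 fold change was -1.10 (SE 0.22, edgeR adjusted p = 0.0764), and 13.6% of its exonic bases overlap the antisense gene Gm26550. Without Control library 1 the adjusted p from edgeR fell under 0.05 for 3 genes (Lypd3, Ly6d and Ly6g6c), and without Control library 2 for 1 gene (Ly6d).

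The other 4 were scarcer. Ly6g6e had 2.33, 2.74 and 2.45 CPM in Control and 1.51, 1.33 and 0.833 CPM in Lhx6-/- libraries (log2 fold change -1.04, edgeR adjusted p = 0.219), and shares 18.0% of its exonic bases with Ly6g6d on the opposite strand. Ly6g6c had 1.96, 4.26 and 5.88 CPM and then 1.80, 1.93 and 1.67 CPM (log2 fold change -1.16, edgeR adjusted p = 0.255), so that Control library 1 was close to the Lhx6-/- level. Ly6c2, which resembles Ly6c1, had 3.79, 4.16 and 7.30 CPM and then 3.60, 2.70 and 2.98 CPM (log2 fold change -0.72, edgeR adjusted p = 0.355). Lypd5 had 0.691, 1.5 and 5.06 CPM and then 0.835, 0.470 and 0.766 CPM (log2 fold change -1.80, edgeR adjusted p = 0.440), and the groups overlapped, with Control library 3 far above the rest. Without that library the log2 fold change of Lypd5 was -0.67 and that of Ly6c2 -0.36.

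The 3 basal keratins of the dental epithelium list also had lower values in the Lhx6-/- libraries, but none was called. Krt5, Krt14 and Krt17 summed to 891 to 1387 CPM in Control and 608 to 709 CPM in Lhx6-/- libraries, without overlap. Each of the 3 was lower without overlap, as were 7.68% of all tested genes. Their edgeR adjusted p was 0.214 (Krt5), 0.116 (Krt14) and 0.154 (Krt17). Over the epithelium list without its 3 enamel genes, 7 of 7 genes were lower, 5 of them without overlap. The sums were 1016 to 1573 and 701 to 829 CPM, with no marker at 0. The 3 enamel genes had log2 fold changes of -0.12 (Amelx), -0.07 (Ambn) and 0.02 (Enam), and the groups overlapped in each. The part of the epithelial share in the lower values of Ly6d, Lypd3 and the other 4 genes was not tested.

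**Figure D3:**
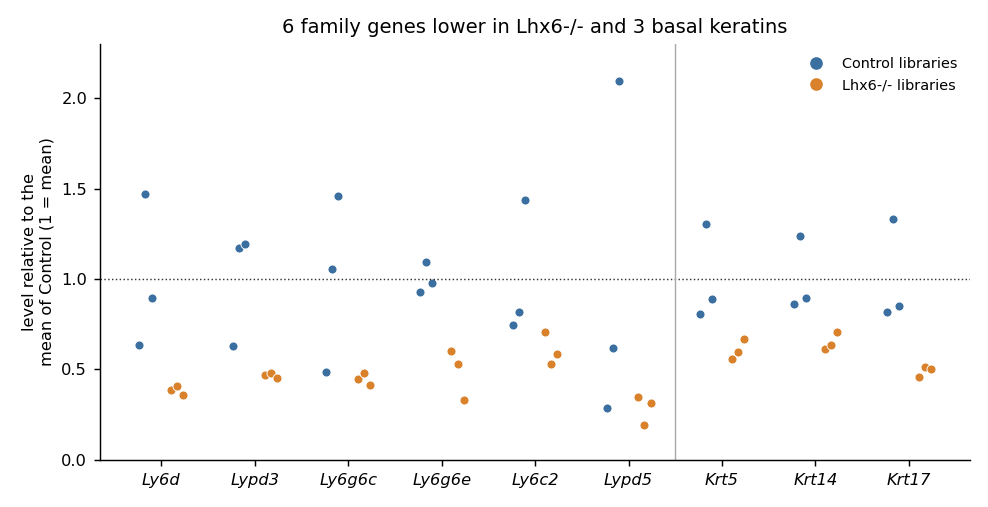
Level of the 6 family genes that qualified as lower by the fold rule and of 3 keratins in each library, relative to the Control mean of the gene (1 = mean), with blue points for Control and orange points for Lhx6-/- libraries. The Lhx6-/- points lie below all Control points in each gene except Lypd5, as in 7.68% of all tested genes. The 6 family genes were picked as lower on this contrast, so this is a description only. None of the 6 family genes or 3 keratins had an edgeR adjusted p under 0.05.

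Cd59a and Gpihbp1 were among the best expressed of the further relatives. Cd59a, the complement inhibitor of the mouse, had 69.7, 71.3 and 69.3 CPM in Control and 58.7, 54.9 and 69.6 CPM in Lhx6-/- libraries (log2 fold change -0.20, SE 0.09, edgeR adjusted p = 0.488). Gpihbp1, which carries lipoprotein lipase to the capillary wall, had 17.3, 21.2 and 17.3 CPM and then 20.4, 20.5 and 19.1 CPM (log2 fold change 0.10, SE 0.10, edgeR adjusted p = 0.835). Both pairs of groups overlapped.

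**Figure D4:**
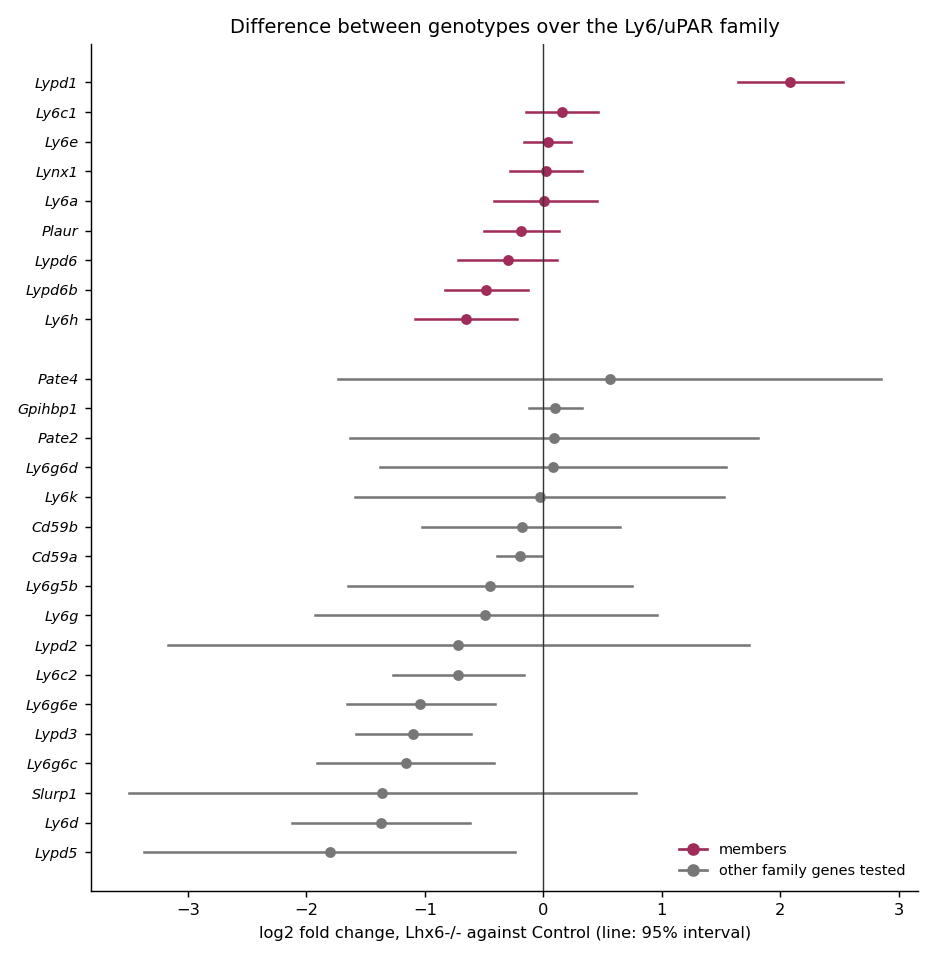
Log2 fold change (Lhx6-/- against Control) with its 95% interval for the 9 members (purple) and the 17 other family genes tested (grey), each set in order of size. Lypd1 at 2.08 stands alone on the right, the 8 relatives among the members lie between -0.65 and 0.16, and most of the other genes lie left of 0, many with wide intervals.

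Genes of proteins known to work with some members of the family were also read. The nicotinic list holds all subunits, with those of the muscle receptor such as Chrna1 and Chrnb1. Of 16 nicotinic acetylcholine receptor subunits, 14 were in the table and 12 were tested, and none was called by edgeR, DESeq2 or limma at an adjusted p under 0.05. In edgeR 1 of the 12, Chrna3, had an unadjusted p under 0.05, as did 9.81% of all tested genes. Its level was 0.0527 ± 0.0403 CPM in Control and 0.218 ± 0.0538 CPM in Lhx6-/- libraries (± SD over 3 libraries per group, edgeR adjusted p = 0.495), where counting error is large. Chrna3 also met the fold rule as higher, a rule met by 3.28% of all tested genes in either direction. The best measured subunits were Chrnb1 (3.94 and 5.11 CPM in the mean), Chrna7 (2.45 and 2.81), Chrna1 (2.29 and 2.6), Chrnb2 (1.42 and 1.43) and Chrnb4 (1.2 and 0.966), with overlap between the groups in each. Of the 12, 8 were above 0 and 4 below, with a median log2 fold change of 0.19. Summed muscle markers were 1418 to 1789 CPM in Control and 1545 to 2303 CPM in Lhx6-/- libraries, with 6 of 8 genes higher and 2 lower. The part of muscle RNA in the values of this list was not tested.

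Around Plaur, 8 of 9 listed genes of the plasminogen activator system were tested, and again none was called by edgeR, DESeq2 or limma. Plau, which encodes urokinase, had 6.19 ± 0.229 CPM in Control and 7.07 ± 1.46 CPM in Lhx6-/- libraries (± SD over 3 libraries per group; edgeR adjusted p = 0.796). Serpine2, an inhibitor of urokinase and thrombin, stood at 533 and 525 CPM in the mean, and the clearance receptor Lrp1 at 487 and 560 CPM. The Plaur ligand Srpx2 had 59.0 and 55.9 CPM. Plat, tissue plasminogen activator, was the single gene with an unadjusted p under 0.05 in edgeR (20.8 and 24.3 CPM, edgeR adjusted p = 0.473), where 9.81% of all tested genes had one. The list had 4 genes above 0 and 4 below, with a median log2 fold change of 0.09.

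Genes listed around the GPI anchor, on which most members depend, had similar means in both groups. All 13 listed genes were tested and none was called by edgeR, DESeq2 or limma, with 6 above 0, 7 below and a median log2 fold change of -0.02. Subunits of the transamidase that joins protein to anchor had 135 and 138 CPM (Pigt), 49.8 and 47.5 CPM (Pigs), 35.0 and 34.5 CPM (Pigk) and 34.5 and 33.8 CPM (Gpaa1). Gdpd5, which cleaves anchors, was the 1 gene with an unadjusted p under 0.05 in edgeR, where 9.81% of all tested genes had one. Its means were 106 ± 5.01 and 94.4 ± 1.76 CPM (± SD over 3 libraries per group, edgeR adjusted p = 0.405).

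The genes most like Lypd1 in profile were sought among all genes above a minimum level, in the family or not. Among 9480 genes with a mean of at least 10 CPM, likeness was measured as the root-mean-square difference of log2 CPM from Lypd1 over the 6 libraries, after each gene was centred on its own mean. The nearest were Smoc2 (0.229), a matricellular protein of the SPARC family, Ntrk3 (0.311), the receptor of neurotrophin-3, Dio3os (0.413), Dio3 (0.430), the deiodinase that inactivates thyroid hormone, Shisal1 (0.444) and Twist2 (0.458), a transcription factor of mesenchyme. None of these 6 genes is a family member, but Lypd6, Ly6a, Ly6c1 and Ly6h had means under 10 CPM in both groups and could not be picked. Lypd1 itself, with means of 3.74 CPM in Control and 15.8 CPM in Lhx6-/-, lay just under this minimum over the 6 libraries. Genes at its level or below were therefore not searched. Dio3os (7.83 CPM in Control and 19.6 CPM in Lhx6-/-) and Twist2 (8.67 and 19.6 CPM) passed the minimum only through their Lhx6-/- level. The 6 genes lie on chromosomes 17, 7, 12, 12, 15 and 1. The 8 relatives were at 1.03 (Ly6c1) to 1.4 (Ly6h). The measure depends largely on the difference between the groups, on which Lypd1 was chosen. A gene without that difference is therefore far from Lypd1 by construction. Smoc2 went from 65.4, 52.7 and 57.9 CPM in Control to 309, 294 and 271 CPM in Lhx6-/- libraries, and like Lypd1 was lowest in Control library 2 and Lhx6-/- library 3. These genes were picked for their likeness from the same 6 libraries, so it is a description with no test.

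**Figure D5:**
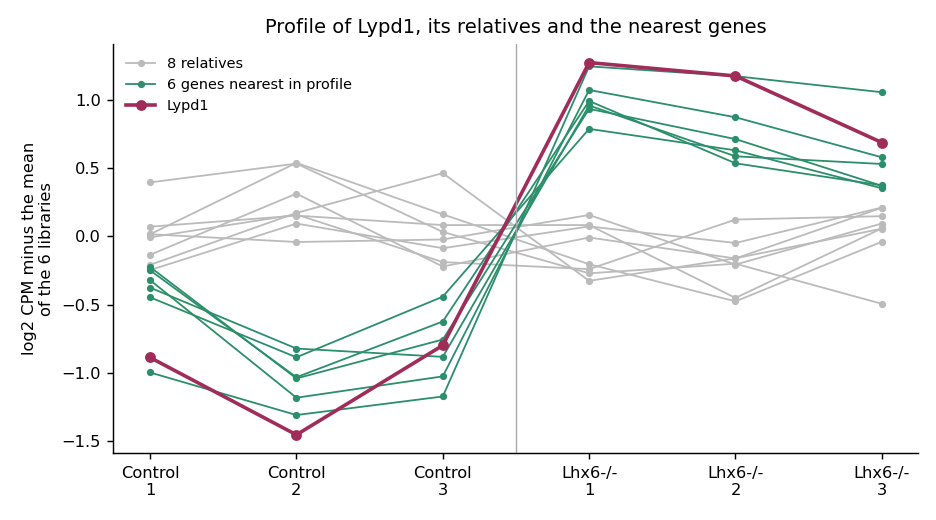
Log2 CPM minus the mean of the 6 libraries for Lypd1 (purple), its 8 relatives (grey) and the 6 genes nearest to it in profile (green), in Control libraries 1 to 3 and Lhx6-/- libraries 1 to 3. The green lines follow Lypd1 from below 0 to above 0 between the groups, and the grey lines of the relatives stay near 0 or cross it the other way.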

How the data were processed

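The authors aligned the reads to mm10 with STAR 2.6.1d, and deposited estimated counts per gene from Partek for 3 Control and 3 Lhx6-/- libraries, without normalization; the counter, its strand setting and the annotation are not given in the sources used here. A deposited table of the authors' own comparison (folds and p-values, not used) also holds the sum and maximum score per gene over libraries, which matched the counts within 5.69e-08 and so gave the gene order of the count table. The Lhx6-/- libraries are numbered as in the sample titles.

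Estimated counts were rounded and tested with edgeR 4.0.16 in R 4.3.3 (quasi-likelihood test, TMM, expression filter, robust dispersion, genotype only, two-sided, Benjamini-Hochberg adjustment over 20114 genes). The code was tested on simulated data. Standard errors come from the fold change and F. Levels per length divide CPM by the exonic bases of GENCODE vM21. Alternatives were RLE or total count scaling, DESeq2 1.42.0, limma 3.58.1 (prior count 2), no filter, at least 10 counts in every library, a replicate block, a Y-linked covariate and leaving out each library. With 3 libraries per group, the precision is set by the spread between libraries and, for scarce genes, by counting error.

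The members, gene lists and tests were chosen with earlier results of these data known. Named genes were the members, Lhx6, family and partner genes that were called, met the fold rule or were among the 5 highest of their list, genes next to Lypd1 or overlapping a member, and the 6 genes nearest in profile. The values of 1 gene that this rule named are not reported here. Plau and Pate4 were named after their values were seen, as were other genes given as overlapping or as markers. Coding sequences are from the principal transcript of each gene, and 75-base stretches were matched on either strand. Plots were made in matplotlib 3.10.9.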

Additional observations from a re-analysis of the deposited data

How the results depend on the processing

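The log2 fold change of Lypd1, which was chosen on this contrast, was 2.08 and became 2.66 with the Y-linked covariate (1.91 without Control library 2 to 2.24 without Lhx6-/- library 3 when 1 library was left out). Over all tested genes the 81 calls became 315 in DESeq2, 134 with the replicate block and 233 with the Y-linked covariate, and 12 (without Control library 3) to 127 (without Control library 1) when a library was left out, with 31 without Lhx6-/- library 1 and 20 without Lhx6-/- library 2; the cause was not tested. The 660 genes of the fold rule became 1174 with the Y-linked covariate. Among the 17 further family genes, the 0 calls became 3 in DESeq2 (Lypd3, Ly6d and Ly6g6c), 1 with the replicate block (Lypd3) and 1 with the Y-linked covariate (Ly6d), and 0 to 3 when a library was left out, and the 6 genes of the fold rule became 3 with the Y-linked covariate. With the Y-linked covariate the log2 fold change went from 0.16 to -0.02 in Ly6c1, which reversed, from 0.01 to -0.35 in Ly6a, from 0.02 to -0.28 in Lynx1, from -0.48 to -0.78 in Lypd6b and from -0.65 to -0.89 in Ly6h. No call was made in the nicotinic receptor, plasminogen activator or GPI anchor lists under any of the 14. The sources speak of pairs of samples and of littermates but do not name the libraries of a pair, and the mutant numbers of the count table differ from those of the titles. Libraries with the same number in the titles did not deviate together (correlations of 0.0256, -0.0288 and -0.0314 for numbers 1, 2 and 3). The highest correlation between a Control and an Lhx6-/- library was 0.0951, for Control library 2 and Lhx6-/- library 3. The title numbers were therefore not taken as pairs in the main fit. The replicate block did use them, so its calls rest on a pairing that is not known. Genes of few counts, such as Pate4 and Chrna3, are limited by counting error.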
